A study of Homo sapiens with 18 samples.

Results

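The genes described here are 10 regulators through which cells pass stress and nutrient status to mTORC1: SESN1, SESN2, SESN3, DDIT4, DEPTOR, CASTOR1, RRAGC, RRAGD, FLCN and FNIP1. They were chosen by symbol for this role, with earlier results of these data known. By Ensembl identifier they were matched to 10 of the 58302 genes of the deposited count table. RNA was sequenced from U87 cells, a human glioblastoma line, in 2 control libraries and 2 libraries of cells treated with Erastin at 10 μM for 72 h. The control cells were grown in DMEM with 10% fetal bovine serum under normal conditions, and a vehicle for them is not named in the labels. The comparison asks which transcripts differed after Erastin, an inhibitor of the cystine importer system Xc- that is used to induce ferroptosis. All libraries came from 1 cell line, and Erastin was given at 1 dose for 1 time. The labels give no time in culture for the control cells, so whether it matched that of the Erastin cells is unknown. The labels do not say whether replicates were separate cultures, so p-values measure only the spread between these libraries, which may be technical.

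mTORC1 is a kinase complex that drives protein synthesis and growth when amino acids are plentiful. Amino acids act through the Rag GTPases, which bring mTORC1 to the lysosome, and the GATOR complexes set their nucleotide state. Sestrins bind GATOR2 and restrain it when leucine is low or when stress raises their amount, while DDIT4 restrains mTORC1 by way of the TSC complex. SESN2 and DDIT4 are known targets of the stress transcription factor ATF4, and folliculin and the Rag genes are known targets of the TFEB family.

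The libraries held between 29412656 and 31513519 counts, and 16751 genes passed the filter on low counts, all 10 regulators included. Marker genes were read as a check of the cell line. Of 10 glial and glioma markers, 8 reached 1 CPM, a count scaled to the TMM-normalized library size, in some library, with VIM at 2515 and 1664 CPM on average in control and Erastin cells, while SOX2 and S100B were at or near 0. The summed glial list stood at 6689 and 6593 CPM in the control libraries and at 3484 and 3700 CPM in the Erastin libraries, and its part in the results below was not tested. Neuronal markers summed to 64.5 and 69.6 CPM in control cells and 27.01 and 26.03 CPM in Erastin cells, with 3 of 6 at 1 CPM in some library. Endothelial markers summed to 12.5 and 14.8 CPM against 5.25 and 6.97 CPM, with 3 of 4 at that level. None of the 6 blood markers or of the 5 epithelial markers reached 1 CPM in any library.

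Promoter sequence was available in RefSeq (GRCh38.p14) for 8 of the 10 genes, as windows from 250 bases before to 50 after a start site, and SESN1 had 3 such windows. Each window was searched on both strands for 3 motifs. These were the ATF4 element TGATGNAA, which 3.62% of 35116 promoter windows held, and the E-box CACGTG, the core of the element that TFEB binds, which 7.26% held. The last was the antioxidant response element TGACNNNGC, in 13.3% of windows. The upstream bases, without any that the deposited annotation counts as exon of the gene, are shown for SESN2, the gene with the largest difference of the 10, and for RRAGC and FNIP1, whose windows held the E-box, with matched motifs in capitals and each sequence written 5′ to 3′ on the strand of the gene.
SESN2, chr1:28259268-28259517, plus strand: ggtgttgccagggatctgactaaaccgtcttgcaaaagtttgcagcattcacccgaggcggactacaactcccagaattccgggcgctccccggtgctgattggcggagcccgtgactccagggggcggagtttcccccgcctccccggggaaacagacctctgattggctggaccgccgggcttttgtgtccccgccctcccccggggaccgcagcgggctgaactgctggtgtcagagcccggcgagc
RRAGC, chr1:38859824-38860022, minus strand: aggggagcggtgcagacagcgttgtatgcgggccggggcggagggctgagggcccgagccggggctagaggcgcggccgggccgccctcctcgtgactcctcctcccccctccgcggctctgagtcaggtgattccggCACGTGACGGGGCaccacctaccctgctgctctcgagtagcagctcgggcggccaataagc
FNIP1, chr5:131797064-131797267, minus strand: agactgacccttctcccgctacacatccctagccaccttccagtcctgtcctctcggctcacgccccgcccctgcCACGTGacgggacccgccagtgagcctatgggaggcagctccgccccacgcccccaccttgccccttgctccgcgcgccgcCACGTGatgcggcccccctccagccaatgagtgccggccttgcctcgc

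The RRAGC capitals join an E-box that begins at -112 from the start site and an overlapping antioxidant response element that begins at -108. FNIP1 held an E-box at -175 and another at -94 from its start site. The SESN2 window held none of the 3 motifs, and neither did those of SESN3, DDIT4, CASTOR1 and FLCN. One of the 3 SESN1 windows held an antioxidant response element on the opposite strand, at -159 from its start site, shown here with its flanks as the only match in a sestrin window.
SESN1, chr6:109009693-109009721, minus strand: ttttcacctcGCCGCGTCAgaccgccagt

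A match describes letters only, and its absence says only that these letters are not in the window. The table held no entry for DEPTOR or RRAGD.

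Transcripts of 7 of the 10 regulators rose in Erastin-treated cells, 1 fell and 2 did not pass the test. Rose and fell are used here for an adjusted p under 0.05 by edgeR's quasi-likelihood test over all 16751 tested genes. Over all tested genes, 23.2% rose and 23.7% fell, so that a change in some direction was common in these data. Upregulated and downregulated are used for genes that also differed by at least 1 on the log2 scale. SESN2 and SESN1 were upregulated and SESN3 was downregulated, against 6.24% upregulated and 9.34% downregulated among all tested genes. For 8 regulators both Erastin libraries exceeded both controls, a pattern of 36.7% of tested genes. Both were lower for SESN3 alone, a pattern of 36.9% of tested genes, and the groups overlapped for CASTOR1. The median log2 fold change of the 10 was 0.65, and that of all tested genes was -0.0026. The genes were chosen with earlier results of these data known, so these comparisons describe them and do not test them. In bulk RNA, fewer cells that express a gene and less of its RNA per cell cannot be told apart.

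**Figure D1:**
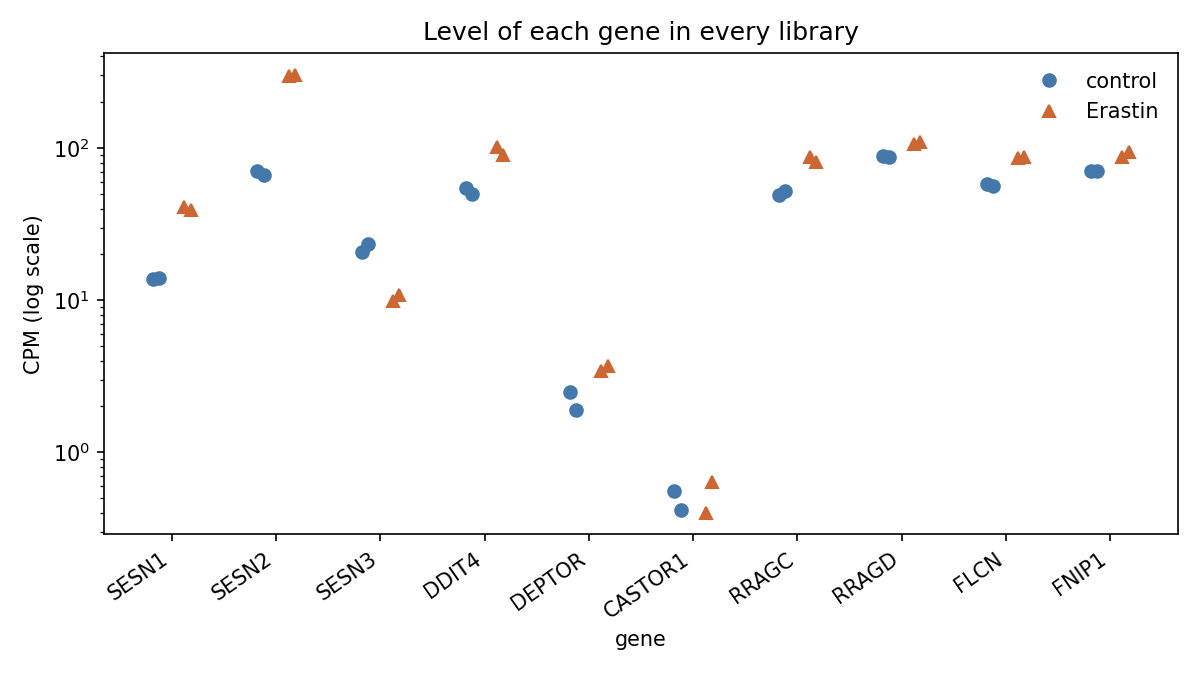
Level of each of the 10 genes in every library, as CPM on a log axis, with 1 point per library and control and Erastin cells in different colours. The sestrins move apart, with SESN2 at 298 and 302 CPM after Erastin, while CASTOR1 stays below 1 CPM in all 4 libraries.

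The 3 sestrins differed in direction. SESN2, a leucine-binding sestrin (ENSG00000130766, chr1:28259527-28282491), stood at 70.4 and 66.2 CPM in the control libraries and at 298 and 302 CPM in the Erastin libraries. The groups lay far apart and the libraries within each were close. Its mean went from 68.3 ± 2.99 to 300.3 ± 2.94 CPM (SD, n = 2 each), a 4.40-fold rise, with a log2 fold change of 2.14 ± 0.0698 (SE) at an adjusted p of 8.72e-10. By p-value, SESN2 ranked 43 among the tested genes, and by size of increase it ranked 349.

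SESN1, a stress-responsive sestrin (ENSG00000080546, chr6:108986437-109094819), stood at 13.7 and 14.0 CPM in control cells and at 41.1 and 39.1 CPM after Erastin. Both Erastin libraries were well above both controls. It rose 2.89-fold, from 13.9 ± 0.235 to 40.1 ± 1.42 CPM (SD, n = 2), with a log2 fold change of 1.53 ± 0.107 (SE) at an adjusted p of 3.71e-07, at rank 531. SESN3, known as a target of FOXO factors (ENSG00000149212, chr11:95165513-95232541), had 20.6 and 23.4 CPM in control cells and 9.90 and 10.8 CPM in Erastin cells. Here the Erastin libraries were the low ones, and the groups did not overlap. It fell from 22.0 ± 2.03 to 10.3 ± 0.631 CPM (SD, n = 2), with a log2 fold change of -1.09 ± 0.133 (SE) at an adjusted p of 3.72e-05. SESN3 lay next to the fold threshold. Without control replicate 2 its log2 fold change was -0.999 with an adjusted p of 2.154e-08, just short of that threshold, and a test against the threshold itself (glmTreat of edgeR) gave an adjusted p of 0.691.

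Levels were compared between genes per kilobase of exon (RPKM). The summed sestrin level was 25.0 and 24.1 RPKM in the control libraries and 95.3 and 96.2 RPKM in the Erastin libraries. SESN2 made up most of this sum in both groups, 80.5% ± 1.47 in control cells and 90.8% ± 0.288 in Erastin cells (SD, n = 2). The share of SESN1 was 11.0% ± 0.469 and then 8.18% ± 0.343, although its own level was higher after Erastin. SESN3 held 8.48% ± 0.997 of the sum in control cells and 1.02% ± 0.0556 after Erastin. The share of SESN3 was thus close to that of SESN1 in control cells and well under it in Erastin cells. Shares were not tested.

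**Figure D2:**
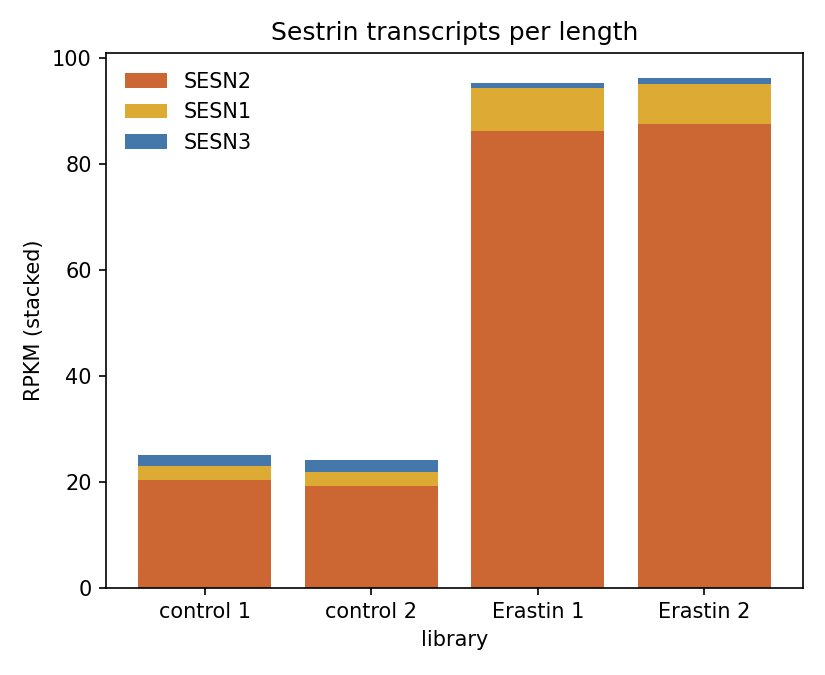
Stacked levels of the 3 sestrins in each library, in RPKM, with 1 bar per library and the axis from 0. The control bars end at 25.0 and 24.1 RPKM and the Erastin bars at 95.3 and 96.2 RPKM, and SESN2 fills most of each bar.

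Next came the inhibitors that act on mTORC1 outside the Rag arm. DDIT4, also called REDD1, a stress-induced protein that releases the TSC complex (ENSG00000168209, chr10:72273920-72276036), stood at 54.9 and 49.6 CPM in control cells and at 101 and 90.4 CPM in Erastin cells. Each Erastin library was above each control library. It rose 1.83-fold, from 52.2 ± 3.73 to 95.7 ± 7.62 CPM (SD, n = 2), with a log2 fold change of 0.87 ± 0.0850 (SE) at an adjusted p of 5.63e-06, under the fold threshold. Of its exons, 41.2% lie opposite ENSG00000269926, a gene with 0 counts in these libraries. Counting was unstranded and reads on both genes were not counted, so these 0 counts do not measure reads on the shared bases. DEPTOR, a protein that binds and restrains mTOR (ENSG00000155792, chr8:119873717-120050913), was a low transcript, with 2.49 and 1.90 CPM in control cells and 3.44 and 3.69 CPM in Erastin cells, from 59 to 116 counts a library. The Erastin libraries were the higher ones, but the log2 fold change of 0.70 ± 0.282 (SE) had an adjusted p of 0.0604. Over the 11 alternatives other than glmTreat its log2 fold change lay between 0.51 and 0.91. Among those of the 11 that kept all libraries, the adjusted p lay between 0.0443 with library totals and 0.183 with DESeq2.

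CASTOR1, the cytosolic arginine sensor (ENSG00000239282, chr22:30285117-30289627), was the lowest of the 10, with 17 and 13 counts in control cells and 12 and 20 after Erastin. The groups overlapped, at 0.556 and 0.418 CPM against 0.401 and 0.637 CPM. The log2 fold change was 0.09 ± 0.623 (SE) with an adjusted p of 0.919, so no difference was detectable at this depth. Of its exons, 46.0% are shared with ENSG00000248751 on the same strand, and reads on both genes were not counted.

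All 4 genes of the Rag and folliculin arm rose, each by less than the fold threshold, where 23.2% of all tested genes rose. RagC and RagD are the partners of RagA and RagB in the Rag heterodimer, and folliculin with its partner FNIP1 acts on RagC and RagD as a GTPase-activating complex. RRAGC (ENSG00000116954, chr1:38838198-38859823) stood at 48.8 and 52.2 CPM in control cells and at 87.6 and 80.5 CPM in Erastin cells. It rose 1.66-fold, with a log2 fold change of 0.74 ± 0.0803 (SE) at an adjusted p of 1.48e-05. RRAGD (ENSG00000025039, chr6:89364636-89412270) stood at 88.5 and 87.2 CPM in control cells and at 106 and 110.0 CPM in Erastin cells. Its groups were apart by 1.23-fold, 87.9 ± 0.915 against 108 ± 3.14 CPM (SD, n = 2). This gave a log2 fold change of 0.29 ± 0.0688 (SE) at an adjusted p of 0.00410, and without Erastin replicate 2 the adjusted p was 0.0534.

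FLCN (ENSG00000154803, chr17:17212212-17237188) stood at 58.3 and 56.5 CPM in control cells and at 85.8 and 87.7 CPM after Erastin. The libraries of a group differed far less than the groups. It rose 1.51-fold, with a log2 fold change of 0.60 ± 0.0727 (SE) at an adjusted p of 3.56e-05. FNIP1 (ENSG00000217128, chr5:131641714-131797063) had 70.9 and 70.2 CPM in control cells and 86.99 and 93.5 CPM in Erastin cells. It rose 1.28-fold, with a log2 fold change of 0.35 ± 0.0734 (SE) at an adjusted p of 0.00185. Of these genes, RRAGC and FNIP1 had the E-box in the promoters printed above. The FLCN window, not printed, did not hold it, and RRAGD had no window to search. ENSG00000273637 covers 22.9% of RRAGC's exons on its strand, with 0 counts. Reads on both genes were not counted here either.

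**Figure D3:**
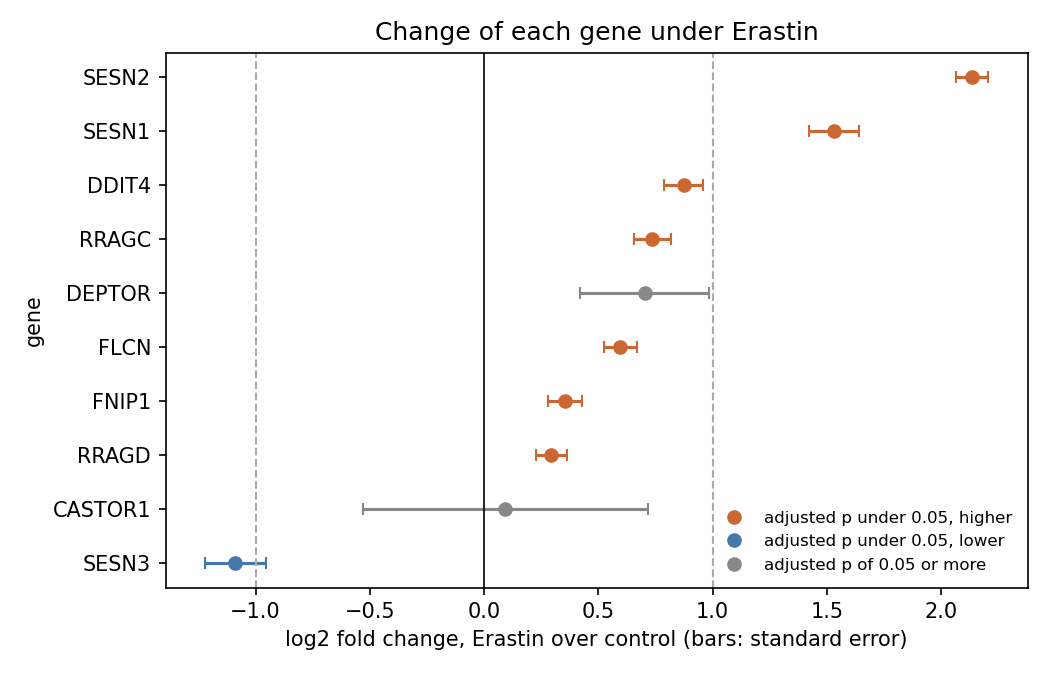
Log2 fold change of each gene, Erastin over control, with its standard error as the bar and dashed lines at the fold threshold of 1. SESN2 at 2.14 and SESN1 at 1.53 lie beyond the upper line and SESN3 at -1.09 beyond the lower, while the bar of CASTOR1 crosses 0.

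Per kilobase of exon, the order of the genes was nearly the same in both groups. In control cells, from high to low, DDIT4 led at 25.4 RPKM and was followed by SESN2, RRAGD, RRAGC, FNIP1, FLCN, SESN1, SESN3, DEPTOR and CASTOR1, the last at 0.177 RPKM. In Erastin cells SESN2 led at 86.96 RPKM with DDIT4 next at 46.5 RPKM, and DEPTOR at 1.36 RPKM stood above SESN3 at 0.978 RPKM. The other places were the same. Every neighbouring pair in both orders differed by more than the sum of its SDs. These levels use the full exon length, but reads on bases shared with another gene were not counted. The shared part was 46.0% for CASTOR1, 41.2% for DDIT4, 22.9% for RRAGC and 11.9% for FLCN. It was 9.61% for DEPTOR, 7.09% for SESN1, 3.54% for FNIP1 and 0.88% for SESN3. The levels of these genes are therefore understated. The order of close neighbours, such as RRAGD and RRAGC in Erastin cells, is thus not firm. Nor is the size of the lead of SESN2 over DDIT4 in Erastin cells.

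The genes whose levels over the 4 libraries followed SESN2 most closely were found by the distance between centred log2 CPM, among the 9508 genes that averaged 10 CPM or more. They were FTH1P20, a pseudogene of ferritin heavy chain whose counts are uncertain because it resembles its parent gene, IL1A, which encodes interleukin-1 alpha, NATD1, TXNRD1, which encodes thioredoxin reductase, and PPP1R15A, which encodes the stress-induced subunit of the eIF2α phosphatase, at distances from 0.0809 to 0.105. TXNRD1 rose from 341 to 1399 CPM with an adjusted p of 7.56e-10. Nearest to DDIT4 were RCC1L, SLC12A4, a potassium-chloride cotransporter, ITPKC, an inositol trisphosphate kinase, HPS1 and GPATCH4, at distances from 0.0449 to 0.0714. With 4 libraries in 2 groups, nearness mostly describes a like size of difference.

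Of 96 other genes of the pathway, its inputs and its outputs, 90 were tested. Among these, 37 rose, 16 fell and 37 did not pass the test, and their median log2 fold change was 0.15. Over all tested genes 23.2% rose and 23.7% fell, the shares to set beside the counts of each list below. The lists too were chosen with earlier results of these data known. Of the 90, 5 genes were upregulated and 5 downregulated, where the shares over all tested genes were 6.24% and 9.34%. Among 5 paralogs of the regulators, FNIP2, the other folliculin partner, was upregulated 3.56-fold, from 32.2 ± 3.40 to 115 ± 5.65 CPM (SD, n = 2), at an adjusted p of 1.8e-08. DDIT4L, the paralog of DDIT4, went the other way, from 7.56 ± 2.09 to 3.50 ± 0.0855 CPM, with a log2 fold change of -1.11 at an adjusted p of 0.00227. Without control replicate 2 that value was -0.80, under the fold threshold. RRAGB, a partner of RagC and RagD, rose by 0.98 with an adjusted p of 3.16e-05, and by 1.03 with library totals and 1.09 without control replicate 2, past the fold threshold. RRAGA rose by 0.26, and CASTOR2 at -0.52 did not pass.

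No gene of GATOR1, GATOR2, KICSTOR or Ragulator passed the fold threshold. None of the 3 GATOR1 genes, DEPDC5, NPRL2 and NPRL3, passed the test, with log2 fold changes from -0.31 to -0.19. Of 5 GATOR2 genes, the sestrin-binding complex, SEH1L rose by 0.38, and WDR59 and SEC13 fell by 0.65 and 0.19 on the log2 scale. In KICSTOR, which holds GATOR1 at the lysosome, ITFG2 alone of 4 rose, by 0.85 with an adjusted p of 0.000338. In Ragulator, the lysosomal anchor of the Rags, LAMTOR4, LAMTOR1 and LAMTOR5 rose by 0.75, 0.62 and 0.52, and none of the 5 fell. Of 4 other nutrient sensors tested, the lysosomal transporters SLC38A9 and SLC36A1 rose by 0.68 and 0.65, and BMT2, the S-adenosylmethionine sensor, had a log2 fold change of -0.33 with an adjusted p of 0.0137.

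In the TSC complex, through which DDIT4 acts, TBC1D7 was upregulated 2.75-fold, from 14.2 ± 1.22 to 39.2 ± 2.15 CPM (SD, n = 2), at an adjusted p of 9.16e-07. TSC1 rose from 107 to 192 CPM and TSC2 from 61.7 to 72.8 CPM, while RHEB and RHEBL1 did not pass the test. Of 10 tested subunits of mTORC1 and mTORC2, RPTOR, MLST8, AKT1S1 and MAPKAP1 rose, the first by 0.62 and MLST8 by 0.67, and PRR5L, an mTORC2-associated protein, was downregulated with a log2 fold change of -1.52 at an adjusted p of 0.000107. MTOR itself stood at 0.04 with an adjusted p of 0.67. Of 13 tested mTORC1 substrates and outputs, ULK1, MAF1 and LPIN1 rose and EIF4B and RPS6 fell, with ULK1, the autophagy kinase, at 0.45 and EIF4B, a translation factor, at -0.51. Among 8 tested AMPK subunits and upstream kinases PRKAB1, PRKAB2, PRKAG1 and STK11 rose and PRKAA2 fell, with PRKAB1 at 0.72 and PRKAA2 at -0.59. Transcript levels do not measure the activity of these kinases.

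Of 8 genes tested in the AKT and PI3K arm, PIK3R1 and IRS2 rose, and PIK3CB and IRS1 fell. IRS2, an adaptor of the insulin receptor, had a log2 fold change of 0.55 and its paralog IRS1 one of -0.47, with adjusted p-values of 0.00065 and 0.000397. In the TFEB family, TFEB and MITF were downregulated, with log2 fold changes of -1.20 and -1.08 and adjusted p-values of 0.00402 and 8.13e-05. TFEB was a low transcript, at 3.89 CPM in control cells and 1.70 CPM in Erastin cells. With glmTreat the adjusted p was 0.662 for TFEB and 0.774 for MITF. TFE3, the member with the highest level in CPM, rose from 232 to 345 CPM by 0.58. The value of MITF without control replicate 1 was -0.999, just under the fold threshold.

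Of 10 tested transcription factors known to act on sestrins or DDIT4, 7 rose and 2 fell, beside 23.2% and 23.7% of all tested genes. ATF4, the effector of the integrated stress response, was upregulated 4.05-fold, from 234 ± 22.4 to 947 ± 3.71 CPM (SD, n = 2), at an adjusted p of 2.09e-09. DDIT3, which encodes CHOP, was upregulated from 12.7 ± 0.661 to 33.7 ± 2.38 CPM with an adjusted p of 1.55e-06. HIF1A, the hypoxia factor known to induce DDIT4, was downregulated from 1349 to 641 CPM with an adjusted p of 7.6e-08. FOXO1 fell by 0.62 on the log2 scale, while FOXO3 rose by 0.40 and FOXO4 at 0.15 did not pass the test. EPAS1, also on this list, rose by 0.32. Of 6 kinases and phosphatase subunits of the integrated stress response, 3 rose, and EIF2AK1 and EIF2AK2 fell. PPP1R15A was upregulated from 57.3 ± 3.65 to 235 ± 3.77 CPM with an adjusted p of 1.64e-09, while PPP1R15B and EIF2AK3, the kinase PERK, rose by 0.48 and 0.47.

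**Figure D4:**
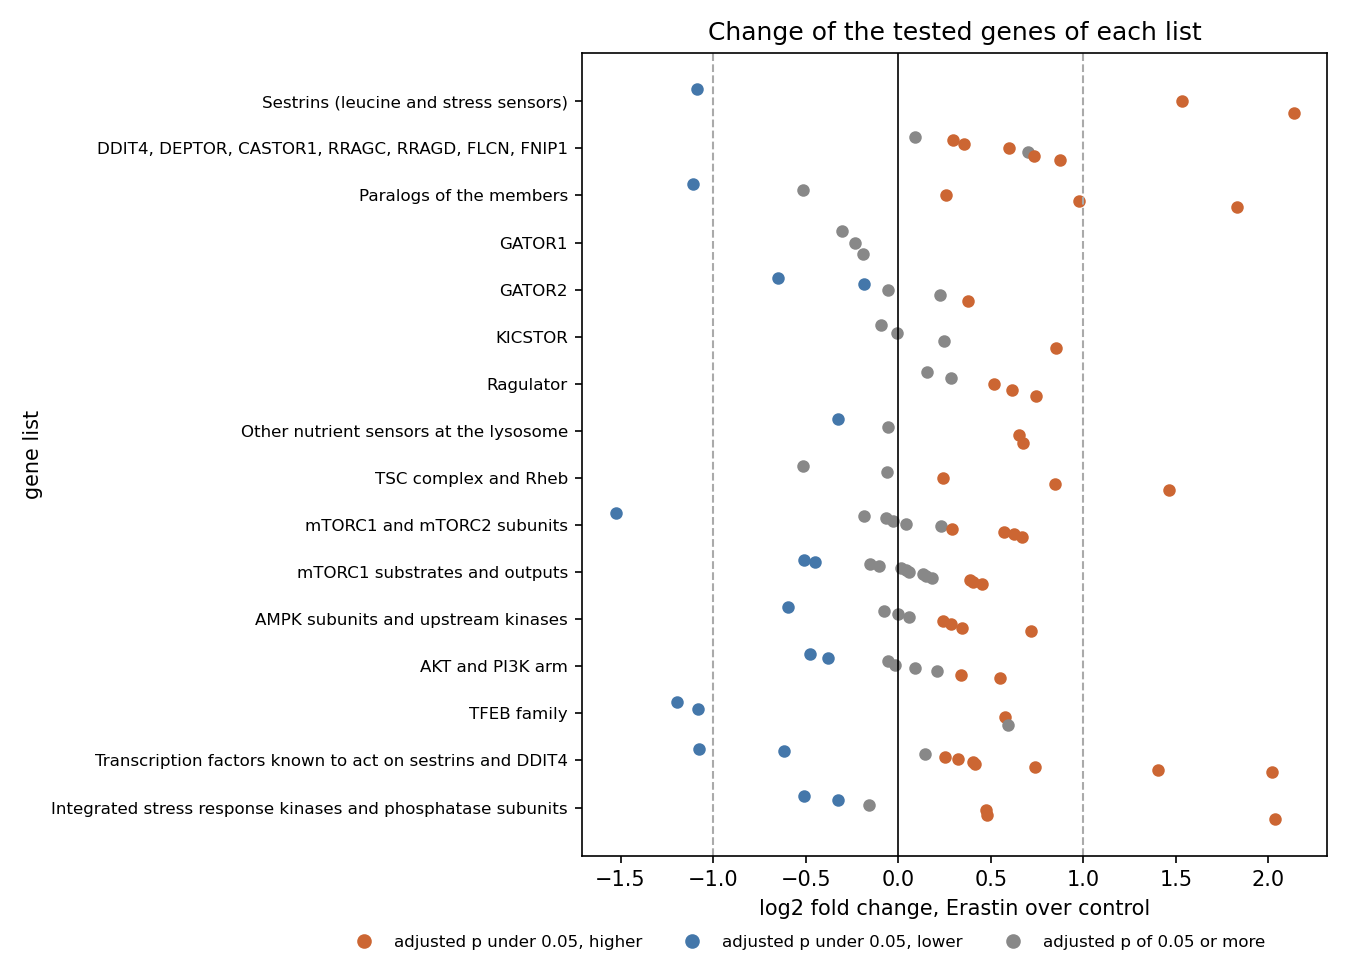
Log2 fold change of every tested gene of each list, Erastin over control, with colours for genes at an adjusted p under 0.05 in each direction and grey for the rest, and dashed lines at the fold threshold of 1. SESN2, SESN1, FNIP2, TBC1D7, ATF4, DDIT3 and PPP1R15A lie beyond the upper line, and the GATOR1 genes lie between -0.31 and -0.19.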

How the data were processed

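RNA of 4 of the 18 samples of the series was analysed, and its ChIP-seq and HiChIP samples were not analysed here. The authors deposited raw counts per gene, made per the header by featureCounts 2.0.3 (the processing notes name version 2.0.4, and the methods htseq-count) from HISAT2 2.1.0 alignments to GRCh38, with the Ensembl release 90 annotation. Counting was unstranded, and both reads of a pair were counted. Estimated counts would have decimals, and every deposited value was whole. Exon length was taken from the deposited table for RPKM.

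Counts were analysed with edgeR 4.0.16 in R 4.3.3, with filterByExpr at a minimum count of 10, TMM normalization and the two-sided quasi-likelihood test, Control against Erastin, with Benjamini-Hochberg adjustment over all tested genes and with no block. The biological coefficient of variation was 10.3%. The script was tested on simulated data. With 2 libraries per group, a two-sided permutation p cannot be below 0.333. Reads are not independent molecules, so depth overstates precision. Same-group libraries differed beyond sampling noise and were not duplicates.

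Alternatives were library totals, RLE size factors, DESeq2 1.42.0, other filters, pairs of reads, glmTreat, a replicate block and each library left out. Named genes were the 10 regulators, in each list the upregulated and downregulated genes or otherwise the 2 with the largest significant change, and the 5 nearest genes of SESN2 and of DDIT4. Other genes named in lists were chosen after their values were seen. Some genes of these lists are not reported here. The members and lists were chosen with earlier results of these data known.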

Additional observations from a re-analysis of the deposited data

How the results depend on the processing

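The regulators gave 2 upregulated genes under every alternative and 1 downregulated gene, SESN3, under every alternative but 2. That count was 0 with glmTreat, and leaving out a library gave 0 to 1 downregulated and 2 to 2 upregulated. The median log2 fold change of 0.65 was 0.70 with library totals and 0.69 with pairs of reads, where the filter dropped CASTOR1, and 0.54 to 0.65 when a library was left out. CASTOR1 was reversed at -0.10 without control replicate 2 and at -0.28 without Erastin replicate 2, within a range of -0.28 to 0.38 over the libraries left out. Of the values of single regulators under the alternatives other than glmTreat, 106 kept direction and side of the threshold. Another 2, both of CASTOR1, were reversed, and 1, that of SESN3 without control replicate 2, fell short of the threshold. In the other pathway genes, glmTreat gave 0 downregulated genes, and leaving out a library gave 4 to 5 downregulated and 5 to 6 upregulated. The replicate block changed no call: it gave 2 upregulated and 1 downregulated regulator and a median of 0.65. The correlation between the deviations of same-numbered libraries was 0.0203. With 2 libraries per group, this value cannot show whether such libraries shared a batch, since a small effect need not appear in it. CASTOR1 had 12 to 20 counts a library and DEPTOR 59 to 116, the lowest of the 10. The causes of these differences were not tested.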
